A study of Mus musculus with 4 samples.

Results

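The expression of 46 cell cycle genes was read in 4 libraries of mouse mammary tumours, of 31054 features in the deposited tables. The genes were chosen as known markers of dividing cells and named by symbol. They comprise 18 genes of S phase, when DNA is copied, and 27 genes of G2 and mitosis (G2/M), when chromosomes are condensed and separated. Stmn1 (stathmin), a microtubule regulator that is also present outside division, was kept in neither list. All 46 symbols were found in every library.

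The libraries come from a study of checkpoint antibodies in 2 mouse models of triple-negative breast cancer. T11-Apobec tumours were grown in Balbc females and KPB25Luv tumours in FVB/NJ females, each from tumour cells placed in a mammary gland. Tumours of 5 mm diameter entered the study: in each model a treated group received antibodies to PD1 (10 mg/kg) and CTLA4 (100 µg) on a biweekly schedule and was taken 7 days later, while the other group had no treatment. Each group was 1 library of dissociated tumour, and the labels do not say whether animals were pooled, so no comparison here has a replicate and no test was possible. Every interval is an exact 95% interval that covers counting error only.

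A dividing cell passes from G1 into S phase when E2F transcription factors are released from the retinoblastoma proteins and cyclin E activates its kinase. Replication then needs the MCM helicase, the PCNA clamp and a supply of nucleotides. Mitosis follows when cyclin B and CDK1 drive spindle building, the checkpoint kinases watch chromosome attachment, and the anaphase-promoting complex with CDC20 and UBE2C destroys the cyclins. Many S genes are bound by E2F at their promoters, whereas many G2/M genes carry a CHR element that is read by the DREAM and MMB complexes, often with CCAAT boxes nearby.

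This division was visible in the promoter letters of the listed genes, which the choice of genes did not use. RefSeq windows on GRCm38.p6, from 250 bases before to 50 bases after a transcript start, were matched by symbol for 37 of the 46 genes (40 windows). None was used for Mcm4, Ccne2, Gins2, Ccna2, Pimreg, Aurkb, Kif20a, Tpx2 and Stmn1. The searched letters, on both strands, were TTTGAA or TTCGAA for CHR, CCAAT, and TTCCCGCC, TTTCCCGC, TTTGGCGC or TTTGGCGG for an E2F-like match. Neighbouring matches may overlap, as CCAAT and its reverse ATTGG do in Ube2c. CHR letters were present in 18 of 22 G2/M genes (81.8%) and 3 of 15 S genes (20%), beside 21.7% of 27025 genes in the table. E2F-like letters were present in 0 of 22 G2/M genes and 7 of 15 S genes (46.7%), beside 4.22% of all genes. The 7 genes were Rrm1, Pclaf, Mcm3, Mcm5, Mcm6, Mcm7 and Uhrf1. CCAAT was common to both lists, with 19 of 22 G2/M and 11 of 15 S genes beside 41.1% of all genes. In the 250 upstream bases alone, CHR letters were left in 9 of 22 G2/M and 2 of 15 S genes, and E2F-like letters in 5 of 15 S genes. The shares over all genes are for the full windows and were not counted for the upstream bases alone, so these last counts have no background.

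The 250 upstream bases are shown for 3 genes of each list, picked because they hold a CHR or an E2F-like match. Capitals mark CCAAT, CHR and E2F-like letters on either strand, and each sequence is read 5′ to 3′ along the gene's own strand. The G2/M genes are Ube2c (chr2:164769679-164769928, plus strand), Top2a (chr11:99024190-99024439, minus strand) and Cdk1 (chr10:69352913-69353162, minus strand). The S genes are Mcm7 (chr5:138171884-138172133, minus strand), Mcm6 (chr1:128359706-128359955, minus strand) and Mcm5 (chr8:75109259-75109508, plus strand).
Ube2c: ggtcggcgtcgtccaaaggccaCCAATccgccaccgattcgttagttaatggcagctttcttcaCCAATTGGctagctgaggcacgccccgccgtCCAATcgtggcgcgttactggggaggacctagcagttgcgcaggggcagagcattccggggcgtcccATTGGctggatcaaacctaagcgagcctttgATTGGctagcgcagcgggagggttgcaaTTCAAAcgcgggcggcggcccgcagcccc
Top2a: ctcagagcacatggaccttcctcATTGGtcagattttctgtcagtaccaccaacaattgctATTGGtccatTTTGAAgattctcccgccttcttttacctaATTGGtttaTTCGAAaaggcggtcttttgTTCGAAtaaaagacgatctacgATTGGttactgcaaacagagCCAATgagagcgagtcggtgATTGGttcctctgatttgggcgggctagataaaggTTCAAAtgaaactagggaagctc
Cdk1: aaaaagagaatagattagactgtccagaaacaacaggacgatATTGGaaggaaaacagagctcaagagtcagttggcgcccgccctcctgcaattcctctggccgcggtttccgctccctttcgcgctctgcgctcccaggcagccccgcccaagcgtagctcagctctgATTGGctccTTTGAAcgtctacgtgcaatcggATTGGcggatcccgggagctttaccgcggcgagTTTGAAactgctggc
Mcm7: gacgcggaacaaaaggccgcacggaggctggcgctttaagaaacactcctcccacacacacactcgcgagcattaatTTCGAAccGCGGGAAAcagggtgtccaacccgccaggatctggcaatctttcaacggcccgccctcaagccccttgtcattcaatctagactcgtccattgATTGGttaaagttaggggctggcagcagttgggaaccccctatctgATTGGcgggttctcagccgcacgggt
Mcm6: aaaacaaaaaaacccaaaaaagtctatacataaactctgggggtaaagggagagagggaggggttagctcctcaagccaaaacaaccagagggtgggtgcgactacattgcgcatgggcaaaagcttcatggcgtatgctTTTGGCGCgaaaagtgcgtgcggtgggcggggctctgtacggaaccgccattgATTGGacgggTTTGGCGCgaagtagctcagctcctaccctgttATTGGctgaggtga
Mcm5: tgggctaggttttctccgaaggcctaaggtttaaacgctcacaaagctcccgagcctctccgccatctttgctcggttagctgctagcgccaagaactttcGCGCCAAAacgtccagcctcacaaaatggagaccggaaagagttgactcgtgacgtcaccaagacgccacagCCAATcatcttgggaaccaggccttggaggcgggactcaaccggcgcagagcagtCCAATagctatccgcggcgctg
The CHR letters nearest the start end 24 bases before it in Ube2c, 18 in Top2a and 10 in Cdk1, downstream of CCAAT letters in each gene. Mcm6 has E2F-like letters at 2 places, and Mcm7 has CHR letters beside its E2F-like match. A match is a run of letters and was not tested as a bound site.

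The 4 libraries held 5509 to 11304 barcodes, and 28200 cells in all were kept. Cell classes were set by UMIs of a few marker genes, none of them a cell cycle gene, and 23157 cells fell in a class. Untreated KPB25Luv stood apart, because 1625 of its kept cells (25.1%) met the markers of more than 1 class, or of 1 class together with 20 or more UMIs of tumour genes. Of them 1299 held tumour and CD3 UMIs. Such doublet-like cells made up 4.15% to 12.4% of the other libraries and were left out of every class. Barcodes found in more than 1 library numbered 460, of which 280 were in a class in more than 1 library. Genes that set no class were read as a check. Trac, a T cell receptor gene, had a UMI in 56.9% to 90.9% of T cells over the libraries, S100a8, a neutrophil granule gene, in 56.5% to 100% of neutrophils, and NeomycinResistanceGene in 50.2% of treated and 28.1% of untreated T11-Apobec and 0 of KPB25Luv tumour cells. A level is the summed UMIs of a list or gene in CPM, the usual scale of counts relative to the total, which here is all UMIs of the class in that library.

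Cells with G2/M UMIs were found mostly in different classes in treated and untreated libraries. Cells with under 1000 UMIs were left out and 1000 UMIs were drawn from each other cell, so that depth was equal, and a cell was then counted as G2/M-positive with at least 2 UMIs of the 27 genes. Of the G2/M-positive cells, T cells made up 56.9% (52.7 to 61.0) in treated and 2.26% (1.58 to 3.13) in untreated T11-Apobec. In KPB25Luv they made up 90.7% (88.2 to 92.9) with treatment and 16.3% (14.2 to 18.6) without. Tumour cells were 71.9% and 71.6% of the G2/M-positive cells in the untreated T11-Apobec and KPB25Luv libraries, and 22.4% and 1.26% in the treated ones. T cells themselves were 52.6% (treated) and 3.25% (untreated) of the cells in a class in T11-Apobec, and 81.2% and 29.7% in KPB25Luv. The order of these shares therefore follows how many cells of each class a library held. Among the classes with at least 35 cells, T cell subtypes aside, the G2/M level ran from 78.4 CPM in macrophages of treated KPB25Luv to 2915 CPM in the 38 tumour cells of that library.

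**Figure D1:**
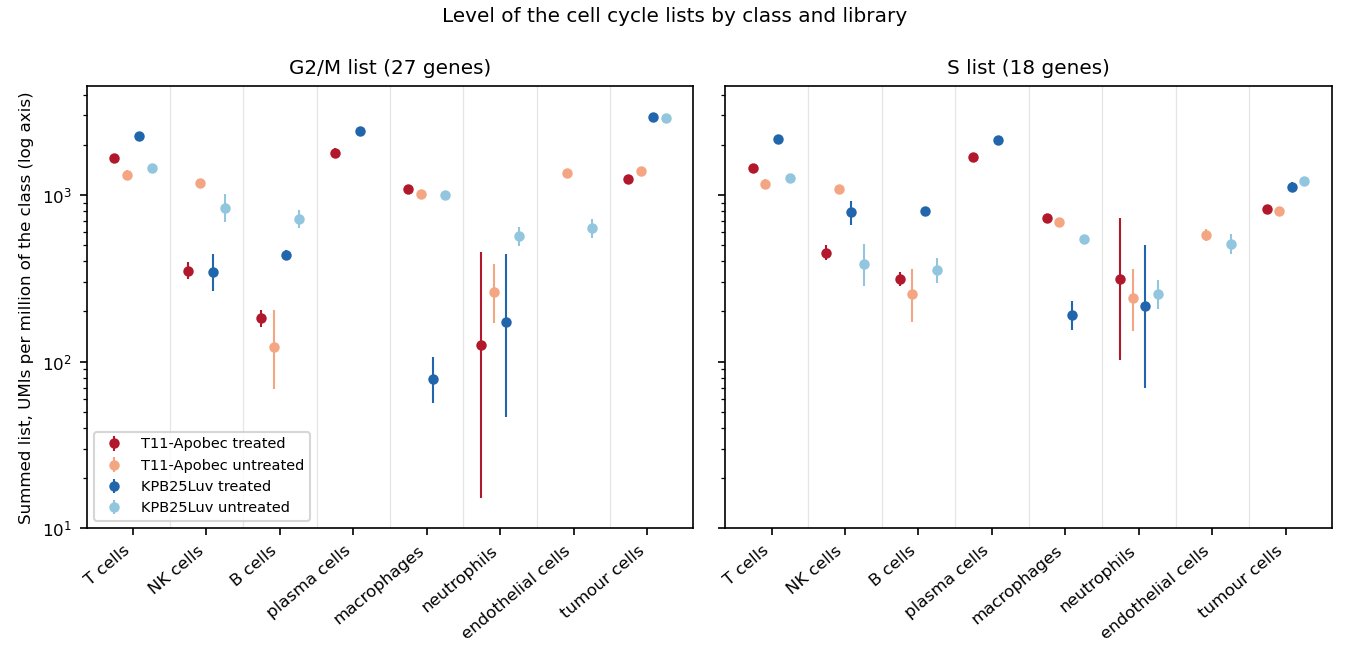
Summed level of the 27 G2/M genes (left) and 18 S genes (right) by class, in CPM on a log axis, for classes with at least 18 cells. Points are single libraries and bars are exact 95% counting intervals. Macrophages of treated KPB25Luv lie at 78.4 CPM for G2/M, while those of the other libraries lie between 1005 and 1082.

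T cells of treated KPB25Luv tumours had more RNA of both lists than those of untreated tumours, before free RNA and depth are considered. The S level was 2175 CPM in 3898 treated cells and 1267 CPM in 1222 untreated cells, a log2 ratio of 0.78 (0.74 to 0.81). The G2/M level was 2264 against 1449.7 CPM, a log2 ratio of 0.64 (0.61 to 0.68). Past 1.5-fold, 18 of 27 G2/M and 11 of 18 S genes were higher and 0 were lower. Of all 12803 genes with at least 10 UMIs in the T cells of both libraries together, 15.1% were that much higher and 21.1% lower. The median log2 ratio was 0.76 for G2/M and 0.65 for S genes, beside 0.00 for all genes. The summed level thus gives the larger ratio for S genes and the median the larger one for G2/M genes.

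By role, the nucleotide genes had the highest summed ratio among the S genes. Rrm2, the regulated subunit of ribonucleotide reductase, had the highest ratio of all members, at 263 CPM treated against 88.9 CPM untreated (1.56, 1.43 to 1.70). Tyms, thymidylate synthase, was at 135 and 86.5 CPM in KPB25Luv and at 90.5 and 81.3 CPM in T11-Apobec, treated and untreated. Tk1, thymidine kinase, was at 85.5 and 63.3 CPM, and at 62.3 and 58.5 CPM. Both genes were above their untreated level in each model, with Tyms past 1.5-fold in KPB25Luv alone and Tk1 in neither model. Among replication genes, Pclaf, the PCNA-associated factor, was at 541 and 264 CPM in KPB25Luv and at 401 and 291 CPM in T11-Apobec. Pcna, the sliding clamp, was at 164 and 82.3 CPM, and at 137 and 82.6 CPM. For these genes the treated library was the higher in each model. Of the entry genes, Uhrf1, which links replication to DNA methylation, was at 58.8 and 34.7 CPM in KPB25Luv and at 34.3 and 16.5 CPM in T11-Apobec. E2f1, an activator of S genes, went the other way in KPB25Luv, with 19.1 CPM treated and 26.2 CPM untreated, and had 23.7 and 11.4 CPM in T11-Apobec. The lowest log2 ratios in KPB25Luv T cells were those of E2f1 (-0.46, -0.73 to -0.18) and Gins2, a subunit of the replicative helicase complex (-0.35, -0.54 to -0.16).

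For entry into mitosis, Cdk1, the mitotic kinase, was at 106 and 70.8 CPM in treated and untreated KPB25Luv T cells and at 72.0 and 45.8 CPM in T11-Apobec. Ccnb2, a B-type cyclin, was at 108 and 63.7 CPM, and at 81.5 and 63.5 CPM. Both were higher with treatment in each model. The chromosome genes had small ratios for their most abundant members: Top2a, the topoisomerase that untangles sister DNA, was at 225 and 181 CPM in KPB25Luv and at 208 and 180.5 CPM in T11-Apobec. Birc5 (survivin), part of the chromosomal passenger complex, was at 252 and 171 CPM, and at 191 and 159 CPM. Mki67, the marker Ki-67, chosen after its values were seen, was at 97.0 and 75.3 CPM and at 88.2 and 87.7 CPM. None of these 3 genes reached 1.5-fold in either model. All 3 checkpoint genes were past 1.5-fold in KPB25Luv. Bub1, a checkpoint kinase at the kinetochore, was at 21.4 and 7.85 CPM (1.43, 1.004 to 1.92), and at 12.3 and 7.63 CPM in T11-Apobec. Bub1b, its partner in the checkpoint complex, was at 32.1 and 16.0 CPM, and at 16.8 and 14.0 CPM. Of the spindle genes, Tpx2, an activator of Aurora A, was at 67.7 and 37.5 CPM, and at 48.6 and 28.0 CPM. Prc1, which bundles the spindle midzone, was at 64.8 and 46.6 CPM, and at 60.7 and 62.3 CPM. Tpx2 passed 1.5-fold in each model and Prc1 in neither. At exit, Ube2c, the ubiquitin-conjugating enzyme of the anaphase-promoting complex, was at 225 and 172 CPM in KPB25Luv and at 174 and 113 CPM in T11-Apobec. Cdc20, its activator, was at 116 and 67.0 CPM, and at 62.9 and 44.5 CPM. Stmn1 was at 569 and 459 CPM, and at 262 and 165 CPM. The 45 listed genes ranged from 5.23 to 541 CPM in the T cells of the 4 libraries.

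T cells of T11-Apobec gave smaller ratios. The G2/M level was 1676 CPM in 2656 treated cells and 1326 CPM in 376 untreated cells (0.34, 0.25 to 0.43), and the S level was 1459.9 against 1165 CPM (0.32, 0.23 to 0.42). Past 1.5-fold, 7 of 27 G2/M genes (Plk1, Ccnb1, Ube2c, Cdk1, Aurka, Aurkb and Tpx2) and 4 of 18 S genes (Pcna, E2f1, Uhrf1 and Fbxo5) were higher, and 0 were lower. Among 11641 genes, 13.2% were that much higher and 19.7% lower. The median log2 ratio was 0.36 for G2/M and 0.18 for S genes, beside -0.07 for all genes. The highest ratios were those of Uhrf1 (1.003, 0.26 to 1.98) and E2f1 (0.98, 0.11 to 2.20). The lowest were those of Kif20a, a kinesin of the midzone, at 11.04 against 15.3 CPM (-0.52, -1.32 to 0.52), and Nusap1, a spindle-associated protein, at 86.1 against 100.4 CPM (-0.23, -0.55 to 0.13). In CD8 T cells 8 of 27 G2/M and 6 of 18 S genes were higher in T11-Apobec, where 17.2% of all genes were higher and 22.3% lower. In KPB25Luv CD8 T cells 19 of 27 and 8 of 18 were higher and 1, E2f1, was lower, where 16.5% of all genes were higher and 18.2% lower.

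**Figure D2:**
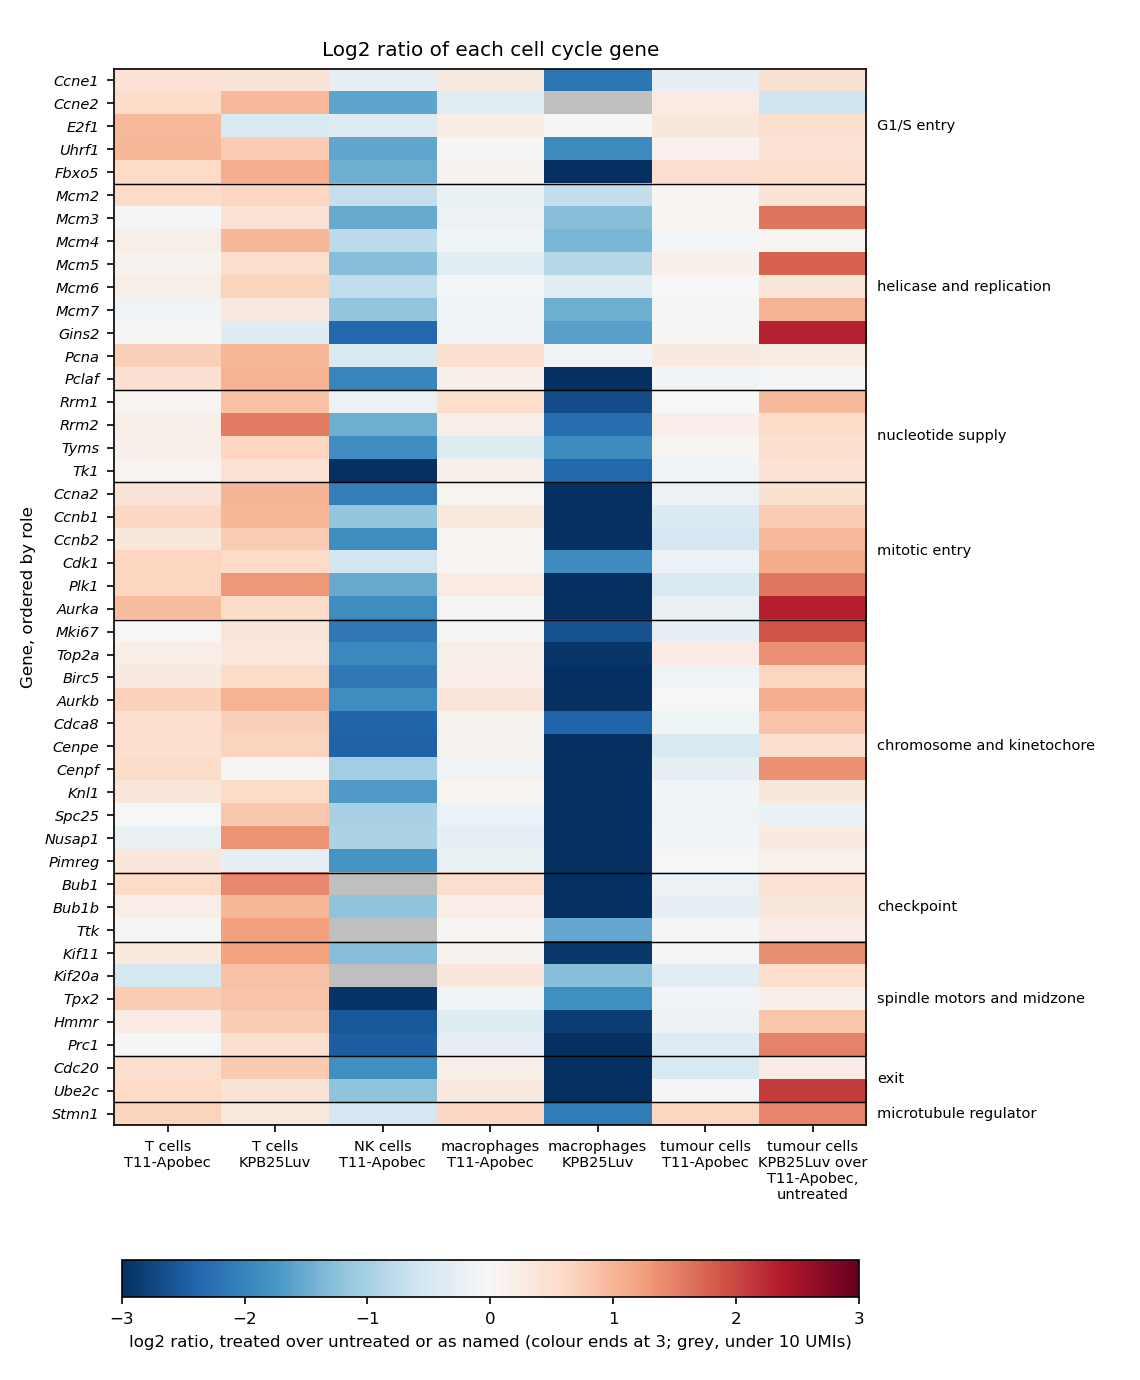
Log2 ratio of each of the 46 genes in 7 comparisons, ordered by role; red is higher in the treated library (or in KPB25Luv, last column), blue is lower, and the colour ends at 3. The treated KPB25Luv macrophages and treated T11-Apobec NK cells are blue in nearly every row, and T cells are red in most rows.

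These T cell ratios depend on how cells of unlike depth are weighted. Median UMIs per T cell were 3348 and 1619 in treated and untreated T11-Apobec, and 4027 and 3650.5 in KPB25Luv. G2/M-positive T cells were deeper than negative ones in every library, with medians of 12071 and 3711 UMIs in treated KPB25Luv and 3228 and 1780 in untreated T11-Apobec. With 1000 UMIs drawn from each cell, the T11-Apobec levels were 876 against 910.3 CPM for G2/M (log2 ratio -0.06, -0.24 to 0.13) and 849 against 876 CPM for S genes (-0.05, -0.23 to 0.15). In KPB25Luv the G2/M levels came to 1021 against 927 CPM (0.14) and the S levels to 1140 against 778 CPM (0.55). A draw leaves each cell's expected share of list UMIs as it was and gives every cell the same weight. A sum instead weighs cells by their UMIs. With the drawn cells weighted equally, the T11-Apobec difference was not detectable in this class, which leaves out T cells that carry UMIs of NK genes. In KPB25Luv the S ratio was the larger. Whether depth itself made the summed difference was not tested. Drawing left out 86 of 376 untreated and 64 of 2656 treated T11-Apobec T cells, and with all UMIs of the remaining cells the T11-Apobec log2 ratios were 0.25 for G2/M and 0.23 for S genes. Drawing does not remove free tumour RNA, which would make up 325 of 1449.7 CPM of the G2/M and 137 of 1267 CPM of the S level in untreated KPB25Luv T cells, by the estimate described with the free RNA values. With that taken off the undrawn levels, the KPB25Luv log2 ratios were 1.0 for G2/M and 0.94 for S genes, so which list has the larger ratio depends on the treatment of depth and free RNA. On the drawn UMIs 8 members were higher and 8 lower of 45 in T11-Apobec, where 17.2% of all genes were higher and 18.7% lower. In KPB25Luv 10 were higher and 5 lower, where 17.2% of all genes were higher and 16.6% lower.

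The share of T cells with UMIs of each list was read on the drawn UMIs. Among T11-Apobec T cells the G2/M-positive share was 12.4% (11.2 to 13.8) with treatment and 12.1% (8.55 to 16.4) without, and it was 15.3% (14.1 to 16.5) and 16.1% (14.1 to 18.4) in KPB25Luv T cells. The intervals overlap within each model, but in KPB25Luv this rests on the settings. Of the 187 positive untreated KPB25Luv T cells 96 had exactly 2 UMIs, against 116 of 576 treated ones, and at a minimum of 3 UMIs the shares were 12.2% (11.2 to 13.3) treated and 7.85% (6.37 to 9.55) untreated. With 2000 UMIs drawn and a minimum of 2, the untreated share was the higher, at 22.0% (20.6 to 23.5) treated and 35.3% (32.2 to 38.5) untreated. No direction is therefore given for the KPB25Luv G2/M share. The S-positive share, by at least 2 UMIs of the 18 S genes, was 21.0% (19.7 to 22.4) and 16.9% (14.8 to 19.2) in treated and untreated KPB25Luv T cells, and 17.1% and 16.6% in T11-Apobec. Before drawing, the G2/M shares were 22.5% (treated) and 14.4% (untreated) in T11-Apobec, and 26.1% and 49.0% in KPB25Luv, where the untreated share was thus the higher. Neutrophils, which do not divide in tissue, were G2/M-positive in 11.5% (7.25 to 17.01) of 183 untreated KPB25Luv cells with 1000 UMIs, and S-positive in 1.64% (0.339 to 4.72). Before drawing, the neutrophils of that library had a median of 1012 UMIs. The G2/M share of untreated KPB25Luv T cells has an interval that overlaps this background, and its S share does not. In the other libraries 4 to 13 neutrophils had 1000 UMIs, and B cells had G2/M shares of 1.08% (treated T11-Apobec) and 3.55% (treated KPB25Luv). In treated KPB25Luv, 465 T cells were positive for both lists, 111 for G2/M alone and 328 for S alone, and in untreated KPB25Luv the numbers were 84, 103 and 112.

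**Figure D3:**
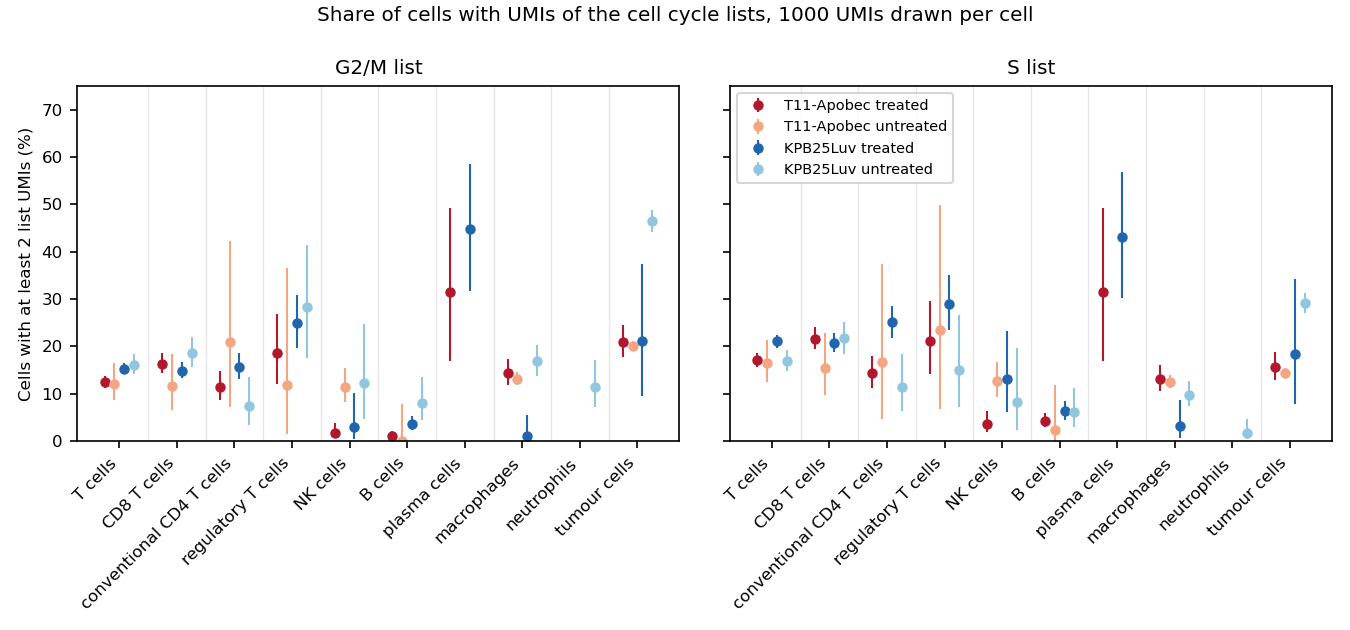
Percent of cells with at least 2 UMIs of the G2/M list (left) or the S list (right) after 1000 UMIs were drawn per cell, by class and T cell subtype with at least 17 such cells. Points are libraries and bars are exact 95% binomial intervals. T cell shares lie between 12.1% and 21.0%, whereas tumour cells of untreated KPB25Luv reach 46.4% for G2/M and NK cells of treated T11-Apobec lie at 1.63%.

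Compared with all CD8 and all conventional CD4 T cells, regulatory T cells, set by Foxp3, had the higher summed G2/M levels in KPB25Luv and in treated T11-Apobec. They were at 3206 CPM in treated T11-Apobec (124 cells), 3349 CPM in treated KPB25Luv (255 cells) and 2755 CPM in untreated KPB25Luv (63 cells), while untreated T11-Apobec held 24 such cells at 2023 CPM. The KPB25Luv log2 ratio was 0.28 (0.18 to 0.39) for G2/M and 0.59 (0.46 to 0.73) for S genes. Their G2/M-positive share in KPB25Luv was 24.9% (19.7 to 30.7) with treatment and 28.3% (17.5 to 41.4) without. In treated T11-Apobec it was 18.6% (12.1 to 26.9), beside 16.3% (14.3 to 18.5) in CD8 T cells. Effector CD8 T cells and activated CD4 T cells, set by Icos, Pdcd1 and Tnfrsf4, had shares of 22.5% and 18.6% there. In treated KPB25Luv those subtypes had 23.8% and 20.9%. By share, regulatory T cells of the treated libraries thus did not stand apart from these subtypes. Conventional CD4 T cells differed most between the KPB25Luv libraries, with 2382 against 1081 CPM for G2/M (1.14, 1.009 to 1.27) and 2490.5 against 1018 CPM for S genes (1.29, 1.16 to 1.43). Their shares at equal depth were 15.7% (13.0 to 18.7) and 7.32% (3.40 to 13.4) for G2/M, and 25.04% (21.8 to 28.5) and 11.4% (6.36 to 18.4) for S. The S intervals do not overlap, and the untreated class had 123 cells deep enough. The mix differed, with 456 of 682 treated and 43 of 129 untreated cells activated by the markers above. Within activated CD4 T cells the S-positive share was 32.4% (28.03 to 36.9) treated and 25.6% (13.5 to 41.2) untreated. The G2/M-positive share was 20.9% (17.2 to 24.98) and 13.95% (5.30 to 27.9). These intervals overlap within each list, while the summed G2/M level was 2783 against 1702 CPM. The part of the mix in the class difference was not tested. Effector CD8 T cells were at 2247 CPM of G2/M RNA in treated T11-Apobec and 2658 CPM in treated KPB25Luv, and the untreated libraries held 32 and 47 of them. Of G2/M-positive T cells, CD8 cells were 61.5% (55.9 to 66.8) in treated T11-Apobec and 44.3% (40.2 to 48.4) in treated KPB25Luv. CD8 cells were 46.8% and 45.4% of all T cells there.

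NK cells gave the clearest difference in T11-Apobec, towards lower levels in the treated library. The G2/M level was 351 CPM in 324 treated and 1172 CPM in 350 untreated cells (-1.74, -1.93 to -1.54), and the S level was 450.2 against 1078 CPM (-1.26, -1.44 to -1.08). Of the 24 G2/M genes with at least 10 UMIs, 23 were lower and Cdk1 (-0.56) was the exception, and 14 of 18 S genes were lower. Among 8220 genes in NK cells 14.7% were that much lower and 20% higher. Tk1 was at 7.70 CPM (6 UMIs) after treatment and at 77.8 CPM without it (-3.23, -4.83 to -2.14). Prc1 was at 8.98 CPM (7 UMIs) and 53.0 CPM (-2.48, -3.95 to -1.41). The highest log2 ratios were those of Rrm1, the large subunit of ribonucleotide reductase (-0.19, -0.93 to 0.53), and Pcna (-0.44, -0.94 to 0.05), whose intervals include 0. Unlike in T cells, equal depth left the difference in place, with log2 ratios of -1.68 for G2/M and -1.33 for S genes. The G2/M-positive share of NK cells was 1.63% (0.533 to 3.77) after treatment and 11.5% (8.29 to 15.3) without it. The tumour genes of the gate stood at 0.936% and 4.85% of their tumour cell level in these NK cells, which would bring 67.6 CPM of G2/M RNA into the untreated ones. Prf1, the perforin gene of mature NK cells, had a UMI in 70.1% of treated and 39.7% of untreated NK cells, and the part of such a shift in the result was not tested. In KPB25Luv, 69 treated NK cells were at 345 CPM and 49 untreated ones at 839 CPM, which is too few for a ratio.

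T cells that also carried UMIs of the NK genes were left out of both classes and counted with the doublet-like cells. In T11-Apobec they were at 3381 CPM of G2/M RNA in 380 treated cells and 2087 CPM in 36 untreated cells, each above the T cells of the same library. At equal depth 33.9% (29.2 to 39.0) of these treated and 19.4% (8.19 to 36.0) of these untreated cells were G2/M-positive. The T cell class stood at 12.4% and 12.1%, and its equal-depth values were not recomputed with the left-out cells. Keeping the left-out cells as T cells moved the summed T11-Apobec G2/M log2 ratio to 0.50.

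Macrophages differed between the models. In T11-Apobec the G2/M level was 1082 CPM in 642 treated and 1011 CPM in 2441 untreated cells (0.10, 0.05 to 0.14), and the S level was 732 against 687 CPM (0.09, 0.04 to 0.15). Of the 45 listed genes 0 were past 1.5-fold in either direction, where 9.65% of 12036 genes were higher and 16.3% lower. Equal depth gave a G2/M ratio of -0.06, so the sign of so small a value is not fixed. Birc5 was at 149 and 130.3 CPM, Ube2c at 116 and 96.3 CPM and Pclaf at 161 and 145 CPM, treated and untreated, so the level was nearly the same in both libraries. The highest ratios were those of Stmn1 at 154 against 99.9 CPM (0.62, 0.50 to 0.75) and Rrm1 at 40.3 against 28.0 CPM (0.53, 0.28 to 0.77). The lowest were those of Hmmr, a spindle and hyaluronan-binding protein (-0.37, -0.72 to -0.03), and Tyms (-0.36, -0.63 to -0.10). The G2/M-positive share was 14.4% (11.8 to 17.3) with treatment and 13.1% (11.8 to 14.5) without.

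In KPB25Luv the macrophages of the treated tumour had little cell cycle RNA. The 105 treated cells held 42 G2/M UMIs (78.4 CPM) and the 549 untreated cells 4291 (1005 CPM), a log2 ratio of -3.66 (-4.15 to -3.24). The S level was 190.4 against 541 CPM (-1.50, -1.81 to -1.22). All 27 G2/M genes and 14 of 17 S genes with at least 10 UMIs were lower past 1.5-fold, where 33.4% of 10699 genes were lower and 16.8% higher. The median was -3.27 for G2/M genes, and -2.60 when the 10 genes without a UMI in the treated cells were set at the bound that 3 counts give. For S genes the median was -1.62, and -1.46 with that bound. Ube2c had 1 UMI against 575, or 1.87 against 135 CPM (-5.59, -11.48 to -3.69). Aurka, the Aurora A kinase of centrosomes and spindle poles, had 0 against 145 UMIs, which makes it at least 6.06-fold lower. Prc1 had 0 against 113 UMIs, at least 4.72-fold lower, and Birc5 was at 9.33 against 133 CPM. Unlike the mitotic genes, Pcna (37.3 against 40.5 CPM, -0.09, -0.86 to 0.55) and E2f1 (20.5 against 20.8 CPM, 0.03, -1.07 to 0.89) were near the same level, as was Mcm6 (-0.31).

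G2/M-positive macrophages were 1 of 98 (1.02%, 0.0258 to 5.55) in treated KPB25Luv and 91 of 540 (16.9%, 13.8 to 20.3) in untreated KPB25Luv. That untreated share lies at the edge of the neutrophil background of 11.5% (7.25 to 17.01), with overlapping intervals, whereas the S-positive share of 9.81% (7.44 to 12.6) lies above that of the neutrophils. The cells of the class were not alike: C1qa, a complement gene of tissue macrophages, had a UMI in 27.6% of treated and 77.0% of untreated KPB25Luv macrophages, and Csf1r, the receptor for their growth factor, in 79.0% and 89.8%. Whether a different mix of monocytes and macrophages moves with the result was not tested. From other cells, T cell receptor RNA in the treated macrophages stood at 2.31% of its T cell level, which would carry 52.3 CPM of G2/M RNA, most of the 78.4 CPM found.

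Tumour cells of T11-Apobec differed little between the libraries. The G2/M level was 1239.5 CPM in 607 treated and 1395 CPM in 5565 untreated cells (-0.17, -0.19 to -0.15), and the S level was 819 against 797 CPM (0.04, 0.01 to 0.07). Of the 45 listed genes 0 were past 1.5-fold, where 10.8% of 14104 genes were higher and 12.4% lower. Ccnb2 was at 50.8 against 71.9 CPM (-0.50, -0.61 to -0.39) and Cdc20 at 69.8 against 96.2 CPM (-0.46, -0.56 to -0.37), the lowest ratios. Stmn1 was at 166 against 106 CPM (0.65, 0.59 to 0.71), and Fbxo5, an inhibitor of the anaphase-promoting complex that lets S phase proceed, at 22.9 against 16.0 CPM (0.53, 0.35 to 0.70). The sign of the G2/M ratio was not stable: it was 0.10 when a UMI of NeomycinResistanceGene, an added feature found in 50.2% of treated and 28.1% of untreated T11-Apobec tumour cells, was required. The G2/M-positive share was 21.0% (17.8 to 24.4) treated and 20.1% (19.0 to 21.1) untreated. The class was set by at least 5 UMIs of Cald1, Tpm2, Serpinh1, Fstl1, Prrx1 and Col5a2, without the markers of another class. Col1a1, a collagen gene that set no class, was at 55.2 CPM in treated and 199 CPM in untreated cells, with a UMI in 34.6% and 58.1%. Whether stromal cells are in this class, here and in the comparison between models, was not tested.

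Between the untreated models, KPB25Luv tumour cells had far more mitotic RNA. The G2/M level was 2901 CPM in 1769 KPB25Luv cells and 1395 CPM in T11-Apobec (1.06, 1.04 to 1.07), and the S level was 1218 against 797 CPM (0.61, 0.59 to 0.63). Of 27 G2/M genes 15 were higher and 0 lower, and of 18 S genes 5 were higher and 1, Ccne2, was lower, where 34.6% of 15159 genes were higher and 24.9% lower. The S count is thus near the share over all genes. Aurka was at 136 against 26.98 CPM (2.33, 2.26 to 2.41), Gins2 at 161 against 32.4 CPM (2.31, 2.25 to 2.38) and Ube2c at 578 against 135 CPM (2.10, 2.06 to 2.13). Mki67 was at 96.1 against 26.1 CPM and Plk1, a kinase of mitotic entry, at 55.2 against 18.4 CPM. Aurka (chr2:172356190-172370535) and Ube2c (chr2:164769898-164778822), both protein-coding on GRCm38, lie on the same chromosome, as do 8 other members (Pcna, E2f1, Nusap1, Knl1, Bub1, Bub1b, Tpx2 and Spc25), whose log2 ratios ran from -0.20 in Spc25 to 0.49 in E2f1. Levels that did not follow were those of Pclaf (223 against 233 CPM, -0.06), Ccne2, a cyclin E (-0.59, -0.83 to -0.37), and Spc25, a kinetochore protein (-0.20, -0.30 to -0.10). Among the G2/M genes of the untreated models the gap therefore ran from -0.20 to 2.33. G2/M-positive cells were 46.4% (44.1 to 48.8) of untreated KPB25Luv and 20.1% of untreated T11-Apobec tumour cells. Strain, model and library cannot be told apart here.

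Treated KPB25Luv had 38 tumour cells, too few for a ratio. Their summed G2/M level of 2915 CPM was close to the untreated 2901 CPM, but with 1000 UMIs per cell it was 1132 (819 to 1524) against 2597 CPM, and the G2/M-positive share was 21.1% (9.55 to 37.3). The G2/M-positive cells among the 38 had a median of 47781.5 UMIs and the others 18176.5, so a few deep cells carry the sum. Ube2c stood at 859.5 CPM in these cells, above the 578 CPM of the untreated ones.

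Plasma cells, which secrete antibody and arise from dividing plasmablasts, had levels as high as T cells in both treated libraries. They were at 1796 CPM of G2/M RNA in 35 treated T11-Apobec cells and 2425 CPM in 58 treated KPB25Luv cells, and the untreated libraries held 1 and 0 of them. G2/M-positive shares were 31.4% (16.9 to 49.3) and 44.8% (31.7 to 58.5). B cells had little: 182 and 123 CPM in treated and untreated T11-Apobec (0.52, -0.18 to 1.43) and 434 and 718 CPM in KPB25Luv (-0.73, -0.93 to -0.52). In KPB25Luv B cells the summed S level was 801 against 354 CPM (1.17, 0.92 to 1.45), but the S-positive share at equal depth was 6.26% (4.45 to 8.53) treated and 6.21% (3.02 to 11.1) untreated. Endothelial cells were measured in untreated T11-Apobec (239 cells), at 1349 CPM of G2/M and 576 CPM of S RNA. The tumour gate genes stood there at 83.4% of their tumour cell level, so they give no estimate of free tumour RNA in this class. Pecam1, an endothelial gene that set no class, had a UMI in 93.3% of these cells. NeomycinResistanceGene was at 0 CPM in them and at 42.3 CPM in the tumour cells of that library.

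Free RNA from lysed tumour cells can add cell cycle UMIs to any droplet, so the genes of the tumour gate were read in the other classes. In untreated KPB25Luv they stood at 9.60% to 13.6% of their tumour cell level in the other 6 classes measured, and in treated KPB25Luv at 0.235% to 0.953%. If the G2/M genes came along in the same ratio, free RNA would give 279 to 393 CPM in untreated KPB25Luv classes. That is 325 of 1449.7 CPM in T cells, 337 of 1005 CPM in macrophages, 344 of 718 CPM in B cells, 393 of 839 CPM in NK cells and 392 of 568 CPM in neutrophils. With that amount taken off, the G2/M log2 ratio was 1.0 in KPB25Luv T cells and 0.17 in B cells, which reverses the sign for B cells. In untreated T11-Apobec the tumour genes stood at 6.99% in T cells (97.4 CPM of G2/M RNA), 5.33% in macrophages (74.3 CPM) and 28.2% in neutrophils (393 CPM, above the 262 CPM found). These amounts rest on the gate genes, a measure chosen after the data were seen. The gate genes were also used to set aside cells with many tumour UMIs, which lowers their level in the classes kept. By the median gene of a longer tumour list the amount would be 697 of 1326 CPM in untreated T11-Apobec T cells, where that gene stood at 49.9% of its tumour cell level. In the 146 CD8 T cells of that library it would be 1604 CPM, above the 1363 CPM found. In its macrophages it would be 240 of 1011 CPM, and in its NK cells 94.3 of 1172 CPM. The part of free tumour RNA in these levels was not tested.

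**Figure D4:**
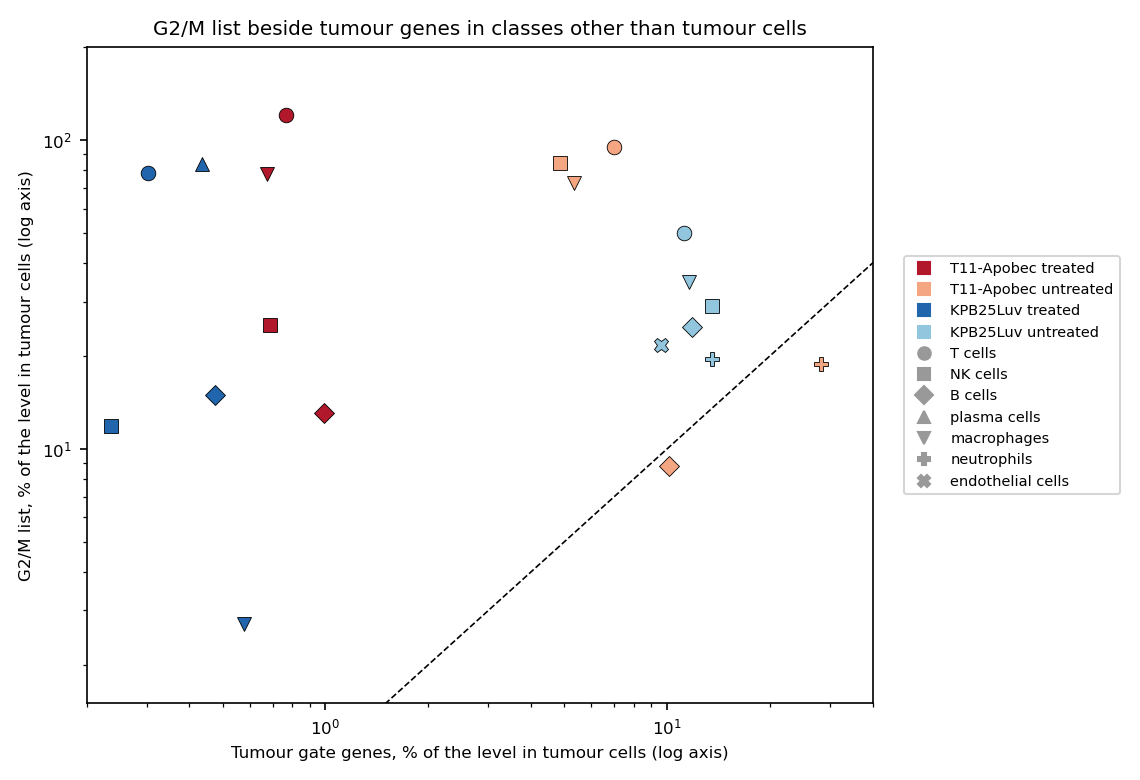
G2/M level (vertical) and level of the tumour gate genes (horizontal) of each class other than tumour cells with at least 45 cells, T11-Apobec endothelial cells left out, both as percent of the level in untreated tumour cells of the same model, on log axes; colours are libraries and shapes are classes. On the dashed line both percentages are equal; T11-Apobec B cells and neutrophils of the untreated library lie below it, and T cells lie well above it.

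The balance of both lists differed between classes. The share of G2/M UMIs among the UMIs of both lists was 51.0% to 53.4% in T cells of the 4 libraries and 60.2% to 72.3% in tumour cells. It was 59.5% to 65.0% in macrophages outside treated KPB25Luv, where it was 29.2% (21.9 to 37.3). Cells with at least 5 UMIs of one list and at most 1 of the other were then compared gene by gene, with the gene itself left out when cells were sorted. Only genes with at least 10 UMIs in both groups of cells together are counted. The shares over all genes were not computed between these groups of cells, so the member counts have no background. In untreated T11-Apobec macrophages (91 to 125 cells with S alone, 30 to 97 with G2/M alone, depending on the gene left out) all 20 such G2/M genes had more RNA in the G2/M cells, with 16 intervals above 0 and a median log2 ratio of 3.94. Of 15 S genes 13 lay on the S side, 9 with intervals below 0, and the median was -1.48. In treated KPB25Luv T cells 10 G2/M genes were measured, all on the G2/M side, 6 with intervals above 0, and 12 of 16 S genes lay on the S side, 5 with intervals below 0. In treated T11-Apobec T cells the 12 measured G2/M genes all lay on the G2/M side with intervals above 0, and 14 of 16 S genes on the S side, 4 with intervals below 0. These T cell values rest on 7 to 24 cells with G2/M alone, in which 7 (KPB25Luv) and 10 (T11-Apobec) of the S genes had 0 UMIs.

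Tumour cells separated less, but this sorting used all UMIs of each cell and was not read at equal depth. Median UMIs were 12495 (T11-Apobec) and 19574 (KPB25Luv) in untreated tumour cells, and 4019 in the macrophages above. S alone was met by 248 to 361 tumour cells in T11-Apobec and 6 to 13 in KPB25Luv, and G2/M alone by 16 to 60 and 27 to 50. The part of depth in the weaker separation was not tested. In untreated T11-Apobec 18 of 21 measured G2/M genes lay on the G2/M side, 9 with intervals above 0, and the median was 1.55. Cdk1 lay on the S side, with 0 UMIs in the G2/M cells against 96 in the S cells. Of 17 S genes 12 lay on the S side, 1 with an interval below 0. In untreated KPB25Luv all 12 measured G2/M genes lay on the G2/M side, but 1 interval was above 0 (median 0.94), and all 7 measured S genes lay on the S side, 2 with intervals below 0.

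Pclaf, listed with the S genes, went with the G2/M genes instead. It had log2 ratios of 2.79 (2.20 to 3.49) in untreated T11-Apobec macrophages, 3.50 (2.57 to 4.41) in treated KPB25Luv T cells and 1.51 (0.91 to 2.07) in treated T11-Apobec T cells. In T11-Apobec tumour cells it was 2.70 (2.34 to 3.06), and in untreated KPB25Luv tumour cells, with 6 to 13 cells of S alone, it was -0.61 (-1.94 to 1.26). Pclaf holds 23.9% of all S list UMIs, so the S level is in part a level of this gene. Without the 2 most abundant members of each list, the S ratio in KPB25Luv T cells was 0.72 and that in untreated tumour cells between models was 0.87. Helicase genes were the most clearly on the S side: Mcm6 had -3.91 (-9.80 to -1.96) and Mcm5 had -3.61 (-9.51 to -1.65) in the macrophages. Their promoters hold E2F-like letters and no CHR letters, as shown above. Of the mitotic genes shown there, Ube2c had 3.97 (2.99 to 5.19), while Top2a had 0.66 (-0.53 to 1.65) in the macrophages and 2.10 (0.96 to 3.03) in treated T11-Apobec T cells.

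**Figure D5:**
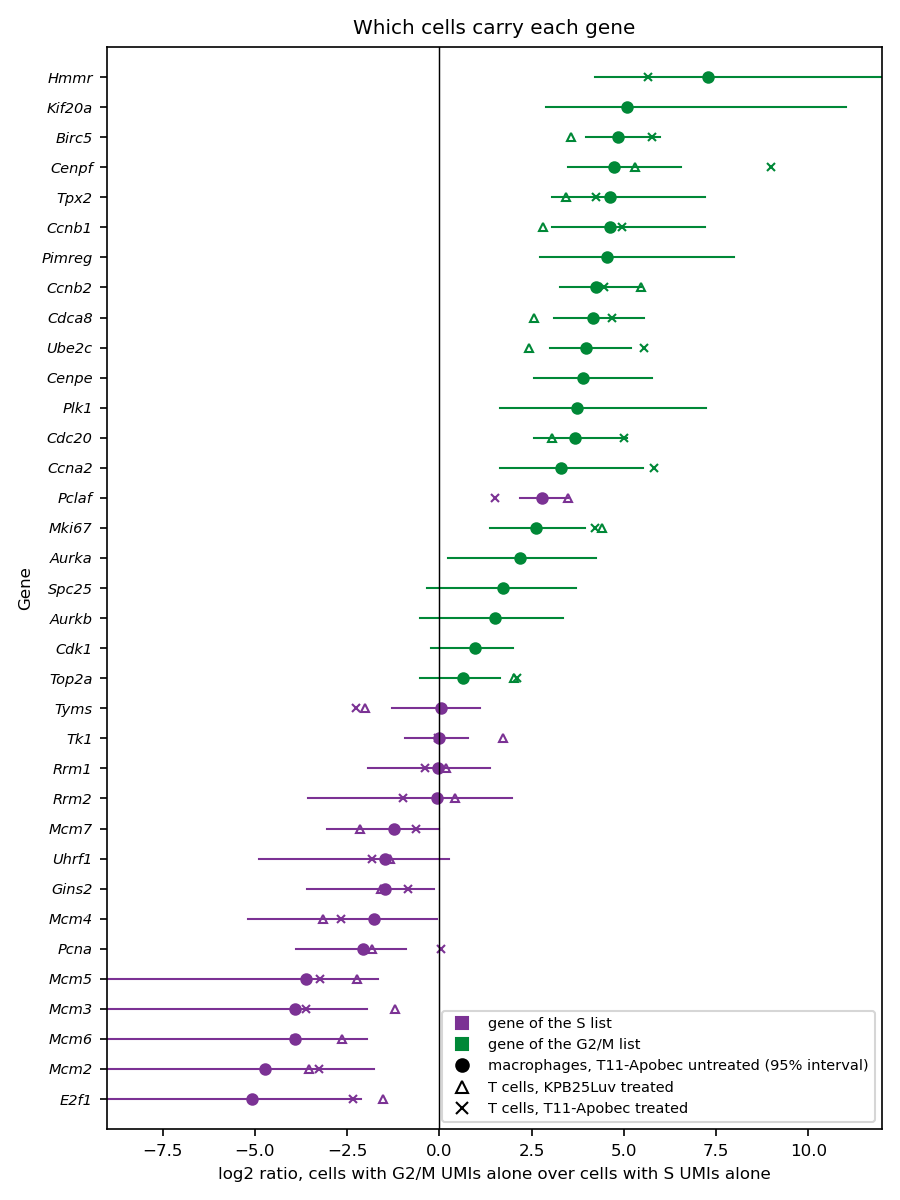
Log2 ratio of each gene between cells with G2/M UMIs alone and cells with S UMIs alone, the gene itself not counted in the sorting; circles with 95% intervals are untreated T11-Apobec macrophages, open triangles treated KPB25Luv T cells and crosses treated T11-Apobec T cells, and intervals that reach past the axis end at its edge. Genes with fewer than 10 UMIs in both groups of cells together are left out. The G2/M genes shown (green) lie right of 0, with 4 of the 20 macrophage intervals reaching 0, and Pclaf is the S gene (purple) that lies among them.

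Stmn1 behaved differently from both lists. Its log2 ratio with treatment was above that of either list in T11-Apobec T cells (0.66, 0.41 to 0.93), macrophages (0.62) and tumour cells (0.65), and below them in KPB25Luv T cells (0.31, 0.25 to 0.37). Between treated models, T cells had 569 CPM in KPB25Luv and 262 CPM in T11-Apobec, and between untreated models 459 and 165 CPM.

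Other genes of the pathway were read by fixed lists. Of 31 further proliferation genes, 8 were higher and 1 lower in KPB25Luv T cells, and 4 and 3 in T11-Apobec T cells. Over all genes 15.1% were higher and 21.1% lower in the former and 13.2% and 19.7% in the latter, so the T11-Apobec counts are near or under the background. In T11-Apobec NK cells 19 of 23 measured ones were lower and 0 higher, and in KPB25Luv macrophages 28 of 31 were lower and 0 higher, where 14.7% and 33.4% of all genes were lower. In untreated tumour cells 19 of 31 were higher in KPB25Luv and 3 lower, where 34.6% and 24.9% of all genes were, with a median log2 ratio of 0.82, although their sum was level (-0.02). The 9 genes of the cyclin D axis, which control the release of E2F and include the retinoblastoma genes, moved little in T cells. In KPB25Luv 1 was higher and 1 lower, and in T11-Apobec 0 and 1, under the shares over all genes. In KPB25Luv macrophages 6 of 9 were lower, beside 33.4% of all genes, among them Cdk4 (61.6 against 188 CPM) and Ccnd2 (24.3 against 114 CPM). Of 7 CDK inhibitors, which hold cells in G1, 3 were lower and 0 higher in KPB25Luv T cells, beside 21.1% of all genes lower, with a sum of 184 against 347 CPM (-0.92, -0.99 to -0.84). Cdkn2a gave most of this difference, at 9.99 CPM treated and 129 CPM untreated. It stood at 1296.5 and 1047 CPM in the tumour cells of those libraries, so its T cell level moves with the free tumour RNA, whose part in it was not tested.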

How the data were processed

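The labels describe Single Cell 3' v2 libraries (10x Genomics) of dissociated mammary tumours. The authors deposited whole UMI counts per gene and barcode, made with Cell Ranger 3.0.2 per the file headers, on mm10 per the submitters' processing notes. From them, cells with at least 200 genes and at most 10% mitochondrial UMIs were kept. Classes were set by marker UMIs (for T cells Cd3d, Cd3e and Cd3g summing to at least 2), and cells that met more than 1 class, or 1 class with 20 or more tumour gene UMIs, were set aside as doublet-like. UMIs were summed per class and library. With 1 library per group there was no test: Poisson (CPM), Clopper-Pearson (shares) and conditional binomial (log2 ratios, 0.5 counts added) 95% intervals were computed, and a difference was counted past 1.5-fold with at least 10 UMIs in both libraries together and 50 cells in each. A count of 0 was bounded by 3 counts. The pipeline was tested on simulated data. Genes were named as the 2 most abundant per role and the 2 highest and 2 lowest ratios with 50 UMIs or more; others are said to be chosen later. Members, gates and lists were chosen with earlier results of these data known. Sums and intervals used scipy 1.17.1 with pandas 2.3.3 and numpy 2.4.6 (Python 3.11.15), doublet scores scanpy 1.11.5, and plots matplotlib 3.10.9.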

Additional observations from a re-analysis of the deposited data

Results flagged for a closer look

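In macrophages the lists differed between treated and untreated tumours in KPB25Luv and hardly in T11-Apobec. The G2/M log2 ratio of treated over untreated was 0.10 in T11-Apobec and -3.66 in KPB25Luv, and the S ratio was 0.09 and -1.50. The T11-Apobec G2/M value changes sign at equal depth, so no direction is given for it. In B cells the G2/M ratio was 0.52 in T11-Apobec and -0.73 in KPB25Luv. With 1 library per group, none of these differences between the models was tested, and the B cell value of KPB25Luv changes sign when free tumour RNA is subtracted.

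T cells with UMIs of the NK genes, which enter no comparison, held G2/M RNA at 3381 CPM in treated and 2087 CPM in untreated T11-Apobec, above the T cells of the same libraries.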

How the results depend on the processing

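Log2 ratios are treated over untreated, or KPB25Luv over T11-Apobec between models, with G2/M before S where a pair is given. Of 192 ratios recomputed under an alternative, 117 moved by less than their counting interval, 68 by more and 7 changed sign. The shares of positive cells moved by more than their interval in 20 of 24 cases at a minimum of 3 UMIs and in 22 of 24 with 2000 UMIs drawn. A mitochondrial limit of 20% and a minimum of 500 genes left all 18 ratios within their intervals. With 1000 UMIs drawn per cell, T11-Apobec T cells gave -0.06 (G2/M) and -0.05 (S), both with the sign changed, T11-Apobec macrophages -0.06 (G2/M, sign changed), T11-Apobec tumour cells -0.02 and 0.13, KPB25Luv T cells 0.14 and 0.55, KPB25Luv macrophages -3.03 (G2/M), and untreated tumour cells between models 1.34 and 0.77. Listed genes past 1.5-fold were then 8 higher and 8 lower in T11-Apobec T cells, 4 higher and 6 lower in macrophages, 6 and 5 in tumour cells, and 1 and 18 in NK cells. They were 10 higher and 5 lower in KPB25Luv T cells, and 1 and 23 in KPB25Luv macrophages, partly because fewer genes kept enough UMIs. Over all genes the shares were 14.3% to 24.8% higher and 14.6% to 29.8% lower, so the counts in T11-Apobec T cells, macrophages and tumour cells lie near them. All UMIs of the cells with at least 1000, chosen after seeing the data, gave 0.25 and 0.23 in T11-Apobec T cells. Averaging per-cell shares gave 0.19 (G2/M) in T11-Apobec T cells, -0.02 (G2/M, sign changed) in macrophages, -0.01 and 0.10 in tumour cells, 0.24 and 0.55 in KPB25Luv T cells, and 1.37 and 0.80 between models. Subtracting free tumour RNA by the longer list gave 0.53 and 0.44 in T11-Apobec T cells, 0.24 and 0.20 in macrophages, 1.19 and 1.01 in KPB25Luv T cells, -7.48 (G2/M) in KPB25Luv macrophages, and 0.19 (G2/M, sign changed) in KPB25Luv B cells. Subtraction by the gate genes, chosen after seeing the data, gave 0.44 (G2/M), 0.19 and 0.17, 1.0 and 0.94, -1.12 (S), and 0.17 (G2/M, sign changed) in the same order. Requiring NeomycinResistanceGene gave 0.10 (G2/M, sign changed) and 0.23 in T11-Apobec tumour cells, and 1.25 and 0.73 between models. With doublet-like cells kept, the G2/M ratio was 0.52 in T11-Apobec T cells, 0.14 in macrophages, -0.10 in tumour cells, 0.71 in KPB25Luv T cells and 1.20 between models (S 0.67). Keeping T cells with NK gene UMIs gave 0.50 (G2/M). Doubled gate minimums gave 0.18 and 0.17 in T11-Apobec macrophages, -0.09 (G2/M) in tumour cells, 0.68 (G2/M) in KPB25Luv T cells, and 1.17 and 0.66 between models. Removing the highest Scrublet scores gave 0.08 (S) in T11-Apobec tumour cells, and 1.04 and 0.64 between models. Without the 2 most abundant members, T11-Apobec tumour cells gave -0.20 and 0.11, KPB25Luv T cells 0.69 and 0.72, KPB25Luv macrophages -1.20 (S), and the models 0.92 and 0.87. At 2-fold, 1 gene was higher in T11-Apobec T cells and 11 in KPB25Luv T cells, and with at least 50 UMIs 19 were lower in NK cells. The share over all genes was not computed at 2-fold or at 50 UMIs, so these counts cannot be set against a background. Apart from these settings' own construction, the cause was not tested. No paired analysis was possible because each group is 1 library, and KPB25Luv tumour cells have no ratio because 38 were treated.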
